A study of Arabidopsis thaliana with 6 samples.

Results

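The proteins of the chloroplast ribosome that are encoded in the nucleus of Arabidopsis thaliana were followed here at the transcript level in an insertion mutant of FIBRILLIN6, a gene for a plastid fibrillin, and in the wild type. The set holds 39 genes out of 36917 genes listed in the deposited count tables. It was chosen by gene identifier, as nuclear genes of the small 30S subunit (13 genes) and of the large 50S subunit (26 genes). Of the 39 genes, 33 have a counterpart in bacteria (named PRPS in the small and PRPL in the large subunit), and 6 are plastid-specific (PSRP1 to PSRP6).

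Chloroplasts keep a ribosome of the bacterial type, which makes the proteins encoded in the plastid genome, among them core subunits of both photosystems and the large subunit of Rubisco. Its ribosomal RNAs and part of its proteins are encoded in the plastid. The other ribosomal proteins are made in the cytosol from nuclear transcripts, imported, and built into the subunits with the help of assembly GTPases, RNA helicases and ribonucleases. Many of these nuclear genes are needed for normal embryo or leaf development, and their transcripts are abundant in young green tissue.

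The study compared the fbn6-1 mutant with the wild type by RNA-seq of total RNA from 3-week-old plants. The mutant, a line with a T-DNA insertion (GK_159E10) in the Col-0 background, gave 3 libraries (replicates 1, 2 and 3). The Col-0 wild type also gave 3 (replicates 2, 3 and 4). All plants grew on soil in a greenhouse under long days of 16 h light and 8 h dark, at about 120 µmol photons m-2 s-1, with no further treatment named. The mutant is a single insertion line, and the labels do not say whether replicates were separate plants or pools, so the p-values measure the spread between these libraries, which may be technical.

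The mutated gene gave 7, 3 and 3 counts in the fbn6-1 libraries, against 1845, 1557 and 2201 counts in the Col-0 libraries. Library totals lay between 8668956 and 12287197 counts, of which 59.4% to 62.2% fell on plastid genes. The nuclear counts that remain lay between 3257770 and 4955128 per library. The tissue was green shoot by its markers. Transcripts of 5 leaf genes (RBCS1A, LHCB1.1, RCA, PETE2 and CA1) summed to between 16469.5 and 17997 CPM (counts in a library scaled to 1000000 counts) in fbn6-1 and between 20361 and 20729 CPM in Col-0. Of 5 root markers, 4 had no count in any library, and 6 flower organ genes summed to at most 1.70 CPM in fbn6-1 and 1.99 CPM in Col-0.

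Each of the 39 genes was well covered, with 450 to 3157 counts in every library, and all 39 passed the filter on low counts. None was called as changed in fbn6-1 by edgeR's quasi-likelihood test at a Benjamini-Hochberg adjusted p under 0.05, where 1.48% of the 16584 genes tested were called higher and 2.34% lower. The adjusted p-values of the 39 genes ran from 0.0738 to 0.970. At an unadjusted p under 0.05, 5 of the 39 genes were higher in fbn6-1 and none lower, while 8.04% of all tested genes were higher and 9.80% lower at that level. DESeq2, which called 1.16% of the genes higher and 2.07% lower, and limma-voom, which called 1.42% higher and 2.38% lower, also called none of them. DESeq2 put 4 of the 39 genes higher and none lower at an unadjusted p under 0.05, against 5.33% of all genes higher and 6.77% lower. Limma-voom put 6 higher and none lower, against 8.13% of all genes higher and 9.74% lower.

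The differences were small and mostly of one sign. Under scaling by trimmed mean of M-values (TMM), 36 of the 39 log2 fold changes of fbn6-1 over Col-0 were above 0 and 3 were below it, with a median of 0.12 and a range from -0.10 to 0.35. Over all tested genes the median was -0.0037 and 49.5% were above 0. The middle 50% of the 39 genes lay between 0.06 and 0.18, and the median standard error (SE) of a single gene was 0.10. All 39 of the 95% confidence intervals lay inside a range of 1 log2 unit on either side of 0, and the outermost bounds were -0.30 and 0.57. Differences larger than these bounds were thus outside the intervals, while the small offset of a typical gene was about as large as its own SE. Since the tissue was measured in bulk, more cells of a type and more RNA per cell cannot be told apart.

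**Figure D1:**
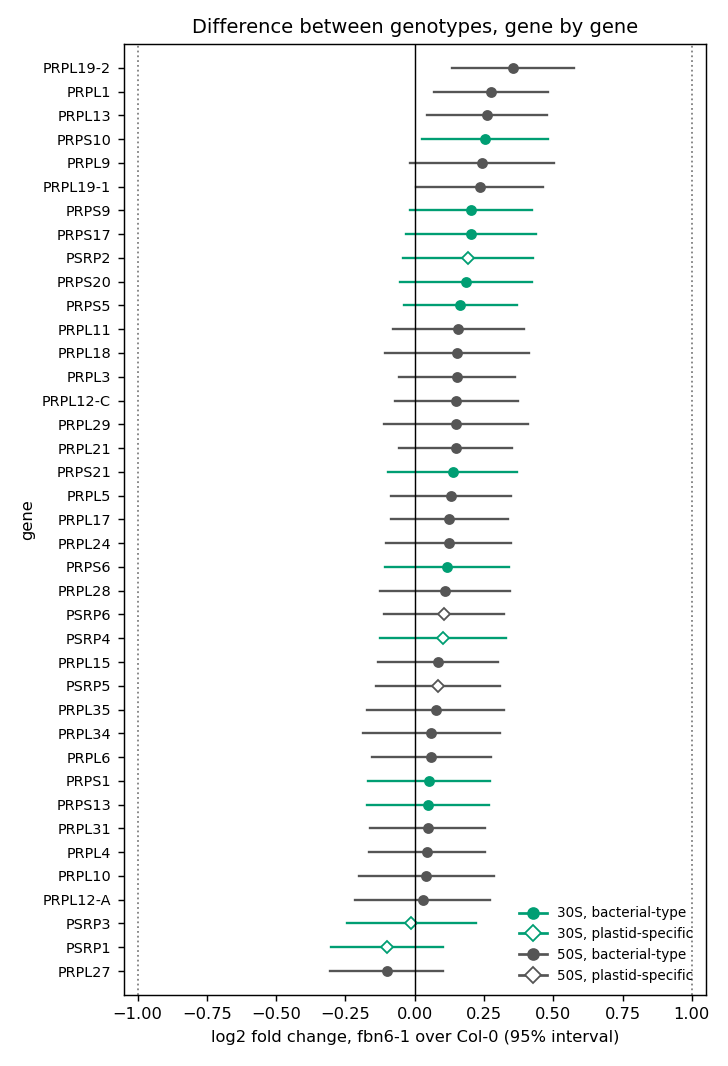
Log2 fold change of fbn6-1 over Col-0 (x axis, log2 units) for each of the 39 genes (y axis, sorted), with points for edgeR's estimate, bars for its 95% confidence interval, colours for the subunit and symbols for bacterial-type or plastid-specific proteins. The points run from -0.10 for PRPL27 to 0.35 for PRPL19-2, and every interval stays between the dotted lines at -1 and 1.

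The genotypes overlapped in most genes. In 9 of the 39 genes all 3 fbn6-1 libraries lay above all 3 Col-0 libraries (10.9% of all tested genes did so), namely PRPS5, PRPS9, PRPS10, PRPL1, PRPL3, PRPL13, PRPL19-1, PRPL19-2 and PRPL21. In 1 gene, PSRP1, they lay below (12.1% of all tested genes did so). The other 29 genes had fbn6-1 and Col-0 libraries within a common range.

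Both subunits had a similar offset. The 13 genes of the 30S subunit had a median log2 fold change of 0.14 with 11 above 0, and the 26 genes of the 50S subunit had a median of 0.12 with 25 above 0. The 33 bacterial-type genes had a median of 0.14 with 32 above 0, and the 6 plastid-specific genes a median of 0.09 with 4 above 0. Genes of the 30S subunit made up 31.5%, 31.2% and 31.0% of the summed CPM of the set in fbn6-1 replicates 1, 2 and 3, against 31.1%, 31.7% and 31.2% in Col-0 replicates 2, 3 and 4. The balance between the transcripts of the subunits overlapped between the genotypes.

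Among the bacterial-type proteins of the 30S subunit, PRPS10 had the largest difference. Its bacterial counterpart sits in the head of the small subunit. PRPS10 had 117, 121 and 98.6 CPM in fbn6-1 replicates 1, 2 and 3, against 88.4, 96.2 and 97.8 CPM in Col-0 replicates 2, 3 and 4. The groups did not overlap, but fbn6-1 replicate 3 lay only just above the highest Col-0 library. The log2 fold change was 0.25 (SE 0.11), with an adjusted p of 0.221 in edgeR's quasi-likelihood test.

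PRPS9, whose bacterial counterpart reaches towards the tRNA in the decoding site, had 114, 111 and 105 CPM in fbn6-1 and 96.1, 104.9 and 86.2 CPM in Col-0. Its lowest fbn6-1 library and its highest Col-0 library were all but equal. The difference was 0.20 on the log2 scale (SE 0.10, edgeR adjusted p = 0.325). PRPS1, counterpart of the bacterial protein that helps mRNA onto the ribosome, had the highest CPM of the subunit, with 227 ± 20.5 CPM in fbn6-1 and 220 ± 15.8 CPM in Col-0 (SD, n = 3 each), and its groups overlapped. Of the other bacterial-type 30S genes (PRPS5, PRPS6, PRPS13, PRPS17, PRPS20 and PRPS21), the log2 fold changes lay between 0.05 for PRPS13 and 0.20 for PRPS17.

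Of the 3 genes with a log2 fold change below 0, PSRP1 and PSRP3 encode plastid-specific proteins of the 30S subunit. PSRP1, annotated in RefSeq only as a 30S ribosomal protein and named PSRP1 by common usage, is related to bacterial factors that bind and silence resting ribosomes. It had 79.2, 74.4 and 73.3 CPM in fbn6-1 replicates 1, 2 and 3, against 80.5, 80.4 and 82.5 CPM in Col-0 replicates 2, 3 and 4. All fbn6-1 libraries lay below all Col-0 libraries, by little. The log2 fold change was -0.10 (SE 0.09, edgeR adjusted p = 0.646). Its exons overlap those of a neighbour on the opposite strand over 159 bases, and whether the counting used strand is not given in the sources used here.

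PSRP3 is a plastid-specific protein of the small subunit that cyanobacteria share. Its only gene in the set, AT1G68590, is named PSRP3/1 in RefSeq, and its values cover that gene alone. It had 88.6, 98.0 and 75.2 CPM in fbn6-1, against 87.7, 88.4 and 88.1 CPM in Col-0. The Col-0 values lay within 1 CPM of each other, and the fbn6-1 values lay on both sides of them. The log2 fold change was -0.01 (SE 0.11). PSRP2, a protein with RNA-binding domains, had 105 ± 7.99 CPM in fbn6-1 and 92.3 ± 10.4 CPM in Col-0, and PSRP4 had 68.6 ± 7.10 and 63.9 ± 2.88 CPM in fbn6-1 and Col-0 (SD, n = 3 each). Both pairs of groups overlapped.

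In the 50S subunit the largest difference lay in a copy of PRPL19, whose bacterial counterpart lies at the contact between the subunits. The copies are numbered here PRPL19-1 (AT5G47190, chromosome 5) and PRPL19-2 (AT4G17560, chromosome 4). Their coding sequences matched at 81.9% of 675 aligned bases, and no stretch of 50 bases was shared, so reads can be told apart along most of their length. The coding bases 1 to 90 are shown from RefSeq TAIR10.1, with the 13 bases that differ in capitals.
PRPL19-1: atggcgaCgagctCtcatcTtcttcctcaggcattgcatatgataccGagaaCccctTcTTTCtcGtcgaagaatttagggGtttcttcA
PRPL19-2: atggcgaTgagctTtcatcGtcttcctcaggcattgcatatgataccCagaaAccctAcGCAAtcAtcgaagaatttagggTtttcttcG

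PRPL19-2 had the largest log2 fold change and the smallest adjusted p of the 39 genes. It had 78.4, 86.5 and 76.3 CPM in fbn6-1 replicates 1, 2 and 3, against 68.3, 59.5 and 60.9 CPM in Col-0 replicates 2, 3 and 4. The groups did not overlap, and the log2 fold change was 0.35 (SE 0.10, edgeR adjusted p = 0.0738). PRPL19-1 had 82.8, 80.7 and 78.8 CPM in fbn6-1, against 73.7, 59.2 and 73.0 CPM in Col-0. Again all fbn6-1 libraries were the higher ones, and Col-0 replicate 3 stood lower than the other two. Its log2 fold change was 0.23 (SE 0.11, edgeR adjusted p = 0.270).

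The copies shared the PRPL19 transcript pool almost evenly. PRPL19-1 made up 51.4%, 48.2% and 50.8% of the summed counts of the pair in fbn6-1, against 51.9%, 49.8% and 54.5% in Col-0. The means were 50.1 ± 1.66% in fbn6-1 and 52.1 ± 2.33% in Col-0 (SD, n = 3 each), and the groups overlapped (two-sided exact permutation test, p = 0.4, where 0.1 is the smallest p that 3 against 3 libraries allow).

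Upstream sequences are shown for PRPL19-2 and PSRP1, which lay apart between the genotypes in opposite directions. The motif called site II (TGGGCC or TGGGCT, searched on both strands) is known from promoters of plant ribosomal protein genes and of genes active in dividing cells. The 250 bases before the annotated gene start are given from RefSeq TAIR10.1, in the direction of the gene, with site II matches in capitals (where a match on one strand overlaps a match on the other, the run of capitals is longer). PRPL19-2 holds 5 matches, and PSRP1 holds none. The pair was picked by fold change. PRPL1 (0.28) and PRPL13 (0.26), with the next largest log2 fold changes, also hold none, while PRPS13 (0.05) holds 1. A link between site II and the differences was not tested.
PRPL19-2 (chr4:9779974-9780223, plus strand): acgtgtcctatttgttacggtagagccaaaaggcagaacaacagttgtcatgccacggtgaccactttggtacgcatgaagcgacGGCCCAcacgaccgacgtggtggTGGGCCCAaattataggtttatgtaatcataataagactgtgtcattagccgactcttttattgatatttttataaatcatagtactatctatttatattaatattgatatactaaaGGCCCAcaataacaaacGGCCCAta
PSRP1 (chr5:8365351-8365600, plus strand): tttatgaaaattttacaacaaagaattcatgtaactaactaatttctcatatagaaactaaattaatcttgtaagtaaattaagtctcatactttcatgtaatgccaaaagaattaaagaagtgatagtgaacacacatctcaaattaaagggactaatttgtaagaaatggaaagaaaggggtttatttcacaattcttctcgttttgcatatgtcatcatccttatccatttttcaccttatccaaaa

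Site II occurred in the windows of 14 of the 39 genes (35.9%), against 19.2% of the windows of all 27443 protein-coding genes. The share was 79.5% for 39 cytosolic ribosomal protein genes, and 35.7% (5 of 14) for genes of plastid ribosome assembly and ribosomal RNA processing. Among the 39 plastid ribosomal protein genes, the 14 with a match had a median log2 fold change of 0.15 with 14 above 0. The 25 genes without one had a median of 0.12 with 22 above 0. The I box core GATAAG, a motif known from light-regulated promoters and searched on both strands, was found in 10 of the 39 windows (25.6%), against 12.29% of all protein-coding windows. The telo box core AAACCCT occurred in 10.3% of the 39 windows and 7.33% of all windows, and the G box CACGTG in 7.69% and 6.49%. These matches describe the letters in the windows, of which 18 of 39 meet no other annotated gene.

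Other 50S genes with large differences were PRPL1, PRPL13 and PRPL9. PRPL1, whose bacterial counterpart forms the stalk past which spent tRNA leaves the ribosome, had 199, 213 and 189 CPM in fbn6-1, against 177, 159 and 161 CPM in Col-0. The groups did not overlap, and the log2 fold change was 0.28 (SE 0.10, edgeR adjusted p = 0.139). Its exons share 168 bases with genes on the opposite strand. PRPL13, whose bacterial counterpart joins the large subunit early in its assembly, had 195, 186 and 169 CPM in fbn6-1, against 162, 157 and 140 CPM in Col-0. It too was higher in every fbn6-1 library, with a log2 fold change of 0.26 (SE 0.10, edgeR adjusted p = 0.187).

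PRPL9 had 93.2, 104.5 and 77.2 CPM in fbn6-1, against 84.1, 69.4 and 78.7 CPM in Col-0. Its groups overlapped because fbn6-1 replicate 3 lay within the Col-0 range, and the log2 fold change was 0.24 (SE 0.12, edgeR adjusted p = 0.320).

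PRPL27, whose bacterial counterpart reaches into the site where peptide bonds form, had the lowest log2 fold change of the 39 genes. It had 158, 166 and 149 CPM in fbn6-1, against 177, 168 and 162 CPM in Col-0. The groups overlapped, since fbn6-1 replicate 2 lay above Col-0 replicate 4. The log2 fold change was -0.10 (SE 0.09, edgeR adjusted p = 0.647).

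The stalk that recruits translation factors is built from PRPL10 and several copies of PRPL12. PRPL10 had 66.0, 70.4 and 63.7 CPM in fbn6-1, against 66.5, 54.98 and 72.5 CPM in Col-0, with a wider spread in Col-0 and a log2 fold change of 0.04 (SE 0.11). PRPL12 is encoded by neighbouring copies on chromosome 3, PRPL12-A (AT3G27830) and PRPL12-C (AT3G27850). Their coding sequences matched at 93.1% of 564 aligned bases, with an identical run of 255 bases, and 42.5% of the 50-base windows of PRPL12-A were also found in PRPL12-C. Reads from those windows could have been lost or split between the copies, so both values are uncertain. The first 90 coding bases are shown from RefSeq TAIR10.1, with the 14 bases that differ in capitals.
PRPL12-A: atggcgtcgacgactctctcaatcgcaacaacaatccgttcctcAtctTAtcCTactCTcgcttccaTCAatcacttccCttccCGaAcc
PRPL12-C: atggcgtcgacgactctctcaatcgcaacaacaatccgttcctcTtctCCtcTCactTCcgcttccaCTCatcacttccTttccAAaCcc

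PRPL12-A had 126, 151 and 116 CPM in fbn6-1, against 120, 140 and 125 CPM in Col-0. PRPL12-C had 146, 150.1 and 122 CPM in fbn6-1, against 124, 129 and 123 CPM in Col-0. Both copies overlapped between the genotypes, with log2 fold changes of 0.03 (SE 0.11) and 0.15 (SE 0.10). PRPL12-A made up 46.4%, 50.2% and 48.9% of the counts of the pair in fbn6-1, against 49.2%, 52.1% and 50.4% in Col-0. The means of 48.5 ± 1.89% in fbn6-1 and 50.6 ± 1.45% in Col-0 (SD, n = 3 each) differed by -2.07 percentage points, within an overlap of the groups (two-sided exact permutation test, p = 0.2). Adjusted over both pairs of copies, the p-values were 0.4 and 0.4. A further copy between them, RPL12-B (AT3G27840), is not one of the 39 genes and had a single count in fbn6-1 replicate 2 and none in the other libraries.

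The rest of the 50S genes had log2 fold changes between 0.04 for PRPL4 and 0.16 for PRPL11. PRPL11, at the base of the factor-binding stalk in bacteria, had 111 ± 13.8 CPM in fbn6-1 and 99.7 ± 6.14 CPM in Col-0 (SD, n = 3 each). PRPL4, which lines the exit tunnel for the growing chain in bacteria, had 129 ± 5.51 CPM in fbn6-1 and 125 ± 8.67 CPM in Col-0 (SD, n = 3 each). PRPL5 and PRPL18, which bind the smallest ribosomal RNA of the subunit in bacteria, had log2 fold changes of 0.13 (SE 0.10) and 0.15 (SE 0.12). PRPL24, which starts large subunit assembly in bacteria, had a log2 fold change of 0.12 (SE 0.11). PRPL3 and PRPL21 were higher in all 3 fbn6-1 libraries by 0.15 (SE 0.10) and 0.15 (SE 0.10) on the log2 scale, with adjusted p of 0.460 and 0.459 in edgeR's quasi-likelihood test. The remaining 50S genes (PRPL6, PRPL15, PRPL17, PRPL28, PRPL29, PRPL31, PRPL34, PRPL35, PSRP5 and PSRP6) overlapped between the genotypes, with log2 fold changes from 0.05 for PRPL31 to 0.15 for PRPL29.

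**Figure D2:**
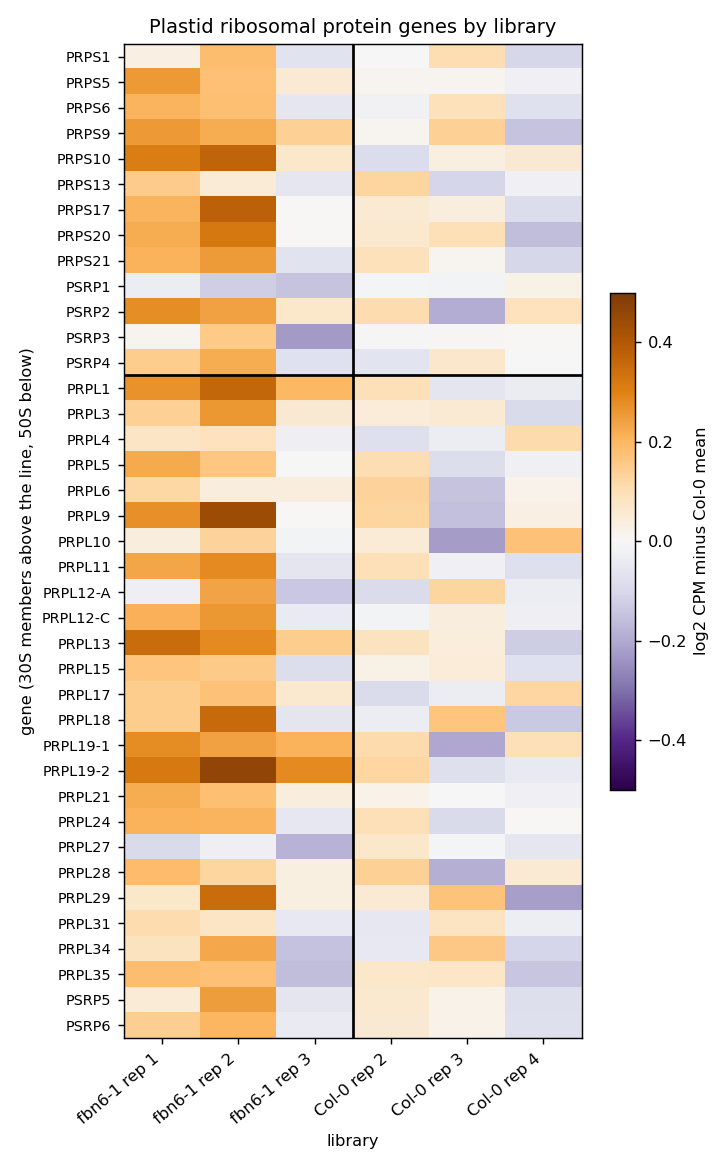
Log2 CPM of each gene (y axis, 30S above the line and 50S below) in each of the 6 libraries (x axis, fbn6-1 left and Col-0 right), minus the mean log2 CPM of the gene in Col-0, as colour (orange above, purple below). The values run from -0.23 to 0.46, and the column of fbn6-1 replicate 3 holds the lowest of the 3 fbn6-1 values in every row.

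The fbn6-1 libraries differed among themselves, and the genes moved together in this. All 39 genes were lowest in fbn6-1 replicate 3 among the 3 mutant libraries, whereas 35.8% of all tested genes were lowest there. In fbn6-1 replicates 1, 2 and 3, 36, 37 and 17 of the 39 genes lay above their own Col-0 mean. The median deviation from that mean was 0.19, 0.22 and -0.03 on the log2 scale. Cytosolic ribosomal protein genes were lowest in fbn6-1 replicate 3 in 26 of 39 cases, and genes for plastid ribosome assembly in 5 of 14. In Col-0 the lowest library was replicate 2 for 7, replicate 3 for 12 and replicate 4 for 20 of the 39 genes. Col-0 replicate 3 was the lowest Col-0 library for 10 of 14 genes for plastid ribosome assembly and 9 of 13 plastid translation factors. Of all tested genes, 38.2% were lowest there. Which property of fbn6-1 replicate 3 accounts for its place was not tested.

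The summed level of the 39 genes followed the same order. It was 5071, 5268 and 4505 CPM in fbn6-1 replicates 1, 2 and 3, against 4661, 4583 and 4408 CPM in Col-0 replicates 2, 3 and 4. The means were 4948 ± 396 CPM in fbn6-1 and 4550 ± 130 CPM in Col-0 (SD, n = 3 each), and fbn6-1 replicate 3 fell inside the Col-0 range. As a share of the nuclear counts, without TMM factors, the set took 1.36%, 1.37% and 1.22% in fbn6-1, against 1.145%, 1.103% and 1.093% in Col-0, and these groups did not overlap.

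**Figure D3:**
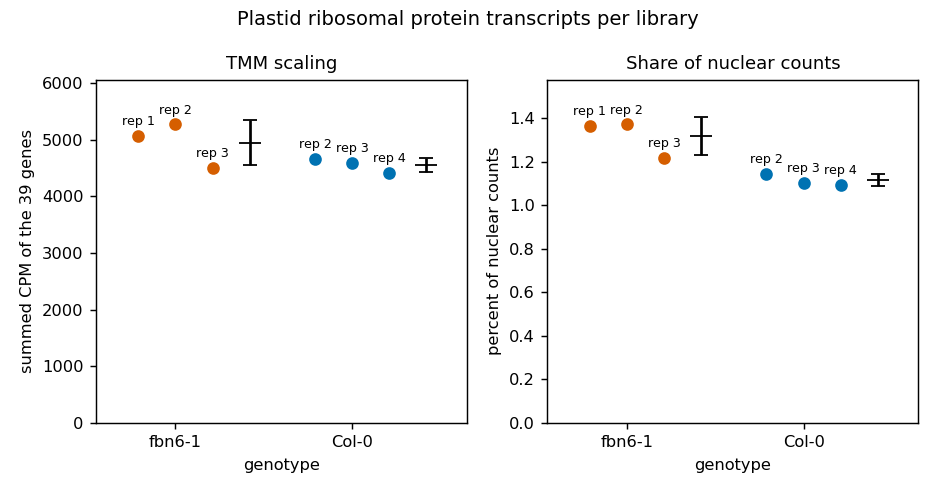
Summed CPM of the 39 genes under TMM scaling (left panel) and their share of all nuclear counts in percent (right panel) for the 3 fbn6-1 and the 3 Col-0 libraries (x axis), with points for libraries and black bars for mean and SD. Under TMM scaling fbn6-1 replicate 3, at 4505 CPM, lies among the Col-0 libraries, while its share of 1.22% lies above all Col-0 shares.

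The log2 fold changes of the set thus depended on the scaling, while its distance from the median of all genes hardly did. TMM factors were 1.09, 1.04 and 1.02 in fbn6-1 and 0.922, 0.949 and 0.998 in Col-0. With scaling to library size alone, the median of all tested genes moved to 0.13 and that of the 39 genes to 0.26, with 39 of 39 above 0. Relative to all genes the set then stood 0.13 higher, as it did under TMM scaling. Under that scaling PRPL19-2 (log2 fold change 0.49, adjusted p = 0.0218) and PRPL1 (0.41, adjusted p = 0.0388) were called higher by edgeR's quasi-likelihood test, where 3.06% of all genes were called higher. With nuclear genes only and library-size scaling, PRPS10 (0.38) and PRPL13 (0.38) joined them, with 3.23% of all genes called higher. The set stood 0.08 to 0.20 above the median of all genes in each of the alternatives run, and without fbn6-1 replicate 3 its median was 0.20, with 12 genes higher and none lower at an unadjusted p under 0.05 (6.64% of all genes were higher and 7.77% lower at that level). None of the 39 was then called by edgeR, where 0.703% of all genes were called higher.

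In level, the 39 genes formed a narrow and high band. Per kilobase of exon, their mean levels lay between 58.3 and 237 CPM per kb in fbn6-1 and between 51.2 and 224 CPM per kb in Col-0. The highest gene was 4.07 times the lowest in fbn6-1 and 4.37 times in Col-0. In Col-0 the median of the 39 genes was 109 CPM per kb, against a median of 3.75 CPM per kb over 16428 nuclear genes, and 95.9% of those nuclear genes lay below the lowest of the 39.

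The highest levels per length belonged to PSRP5, PRPL29 and PRPL15. PSRP5, a small plastid-specific protein of the 50S subunit, had 231, 266 and 214 CPM per kb in fbn6-1, against 233, 227 and 211 CPM per kb in Col-0. PRPL29, whose bacterial counterpart sits at the mouth of the exit tunnel, had 209, 254 and 204 CPM per kb in fbn6-1, against 207, 224 and 171 CPM per kb in Col-0. PRPL15 had 207, 206 and 174 CPM per kb in fbn6-1, against 188, 191 and 176 CPM per kb in Col-0. All 3 genes overlapped between the genotypes. The ranges of PSRP5 and PRPL29 overlapped within each genotype, but PSRP5 was the higher of the pair in every library. Exon overlaps of PSRP5 with genes on the opposite strand sum to 252 bases.

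The lowest levels per length belonged to PSRP1, PRPL19-2 and PRPS10. PSRP1 had 61.0, 57.3 and 56.4 CPM per kb in fbn6-1, against 62.0, 61.9 and 63.5 CPM per kb in Col-0. PRPL19-2 had 63.8, 70.5 and 62.2 CPM per kb in fbn6-1, against 55.6, 48.5 and 49.6 CPM per kb in Col-0. PRPS10 had 75.7, 78.6 and 63.9 CPM per kb in fbn6-1, against 57.3, 62.3 and 63.4 CPM per kb in Col-0. PRPL19-2 ranked below PSRP1 and PRPS10 in every Col-0 library. In fbn6-1 it ranked above PSRP1 in all 3 libraries. The order of the 39 genes by level per length was otherwise alike in both genotypes, with a Spearman rho of 0.986 across the 39 genes, which share libraries and are not independent replicates.

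**Figure D4:**
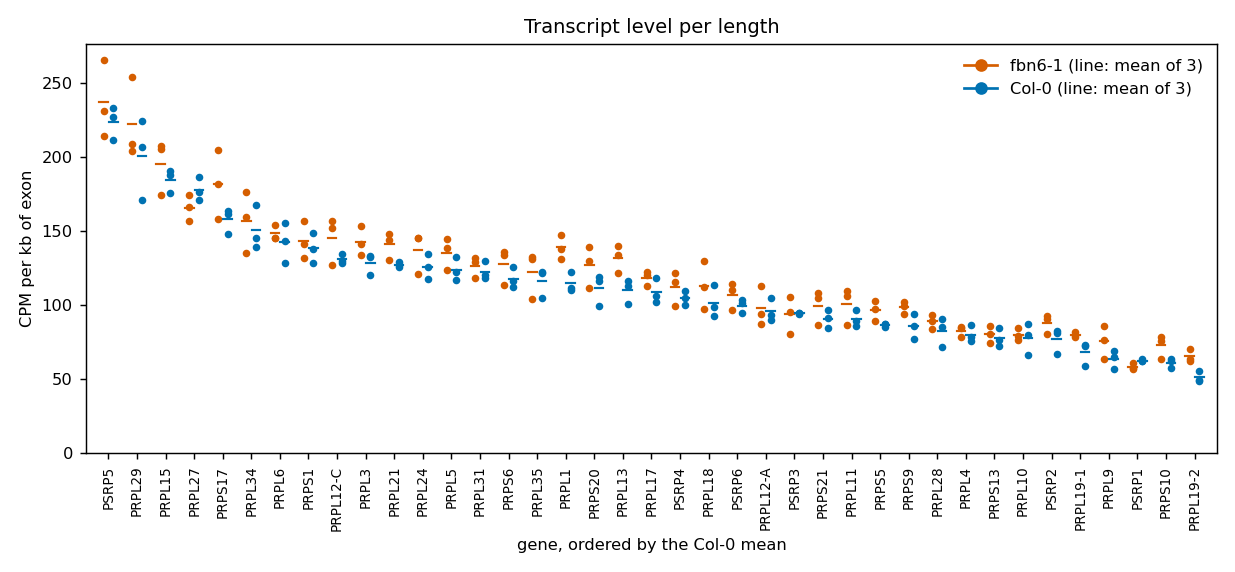
Level of each of the 39 genes in CPM per kb of exon (y axis, linear from 0), ordered by the Col-0 mean (x axis), with orange points for the 3 fbn6-1 libraries, blue points for the 3 Col-0 libraries and a dash for each mean. Levels fall from 237 CPM per kb in fbn6-1 and 224 CPM per kb in Col-0 for PSRP5 to 65.5 and 51.2 CPM per kb for PRPL19-2.

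Genes that work with the plastid ribosome were compared next. Of 14 genes for plastid ribosome assembly and ribosomal RNA processing, 4 rose in fbn6-1 by edgeR's quasi-likelihood test at an adjusted p under 0.05 (1.48% of all genes did), none fell (2.34% of all genes did), 13 were above 0, and the median log2 fold change was 0.39. Their summed level was 556 to 567 CPM in fbn6-1 and 405 to 457 CPM in Col-0. DER (AT3G12080), a GTPase of large subunit assembly, had 36.7, 34.8 and 34.0 CPM in fbn6-1, against 24.6, 23.4 and 24.3 CPM in Col-0, with a log2 fold change of 0.55 (SE 0.10, edgeR adjusted p = 0.00938). PNP (AT3G03710), the plastid polynucleotide phosphorylase that trims RNA ends, had 52.0, 48.4 and 50.2 CPM in fbn6-1, against 34.9, 30.9 and 40.1 CPM in Col-0, with a log2 fold change of 0.50 (SE 0.11, edgeR adjusted p = 0.0228). Both genes were well apart between the genotypes.

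RH3 (AT5G26742), an RNA helicase for intron splicing and large subunit assembly, had 258, 275 and 263 CPM in fbn6-1, against 215, 191 and 203 CPM in Col-0, with a log2 fold change of 0.39 (SE 0.09, edgeR adjusted p = 0.0361). RNR1 (AT5G02250), an exoribonuclease that matures ribosomal RNA, had 23.5, 21.2 and 22.7 CPM in fbn6-1, against 18.7, 13.4 and 12.5 CPM in Col-0, with a log2 fold change of 0.60 (SE 0.15, edgeR adjusted p = 0.0394). The number of calls changed when a library was left out. None of the 14 genes was called without fbn6-1 replicate 1, 1 without fbn6-1 replicate 2, 1 without fbn6-1 replicate 3, 2 without Col-0 replicate 2, 5 without Col-0 replicate 3 and 3 without Col-0 replicate 4. Over all tested genes, the number called higher was 245 with all libraries, 463 without Col-0 replicate 3, and 84 to 133 without any other library. The median log2 fold change of the 14 genes was 0.32 without Col-0 replicate 3, and 0.37 to 0.42 without any other library.

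Of 13 plastid translation factors, 2 were called higher by edgeR (1.48% of all genes were) and none lower (2.34% of all genes were). Their median log2 fold change was 0.01, with 7 above 0. RF1 (AT3G62910), a release factor that ends translation at stop codons, had 29.5, 31.3 and 28.1 CPM in fbn6-1, against 20.0, 20.96 and 20.0 CPM in Col-0, with a log2 fold change of 0.54 (SE 0.11, edgeR adjusted p = 0.0128). IF3 (AT2G24060), an initiation factor, had 38.9, 37.7 and 38.96 CPM in fbn6-1, against 29.4, 27.3 and 30.1 CPM in Col-0, with a log2 fold change of 0.41 (SE 0.10, edgeR adjusted p = 0.0410). The elongation factors EF-Tu and EF-G, which deliver tRNA and move the ribosome along, had log2 fold changes of -0.05 (SE 0.09) and -0.04 (SE 0.10). With DESeq2 IF3 was not called (adjusted p = 0.0650). The number of factors called was 0 without fbn6-1 replicate 1 or 2 and without Col-0 replicate 2 or 4, 1 without fbn6-1 replicate 3, and 2 without Col-0 replicate 3. Over all tested genes, between 84 (without fbn6-1 replicate 2) and 463 (without Col-0 replicate 3) were called higher in these fits.

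Listed genes of the cytosolic ribosome, a part of its proteins (RPSa to RPS6 and RPL3 to RPL13a), showed a like offset. Of 39 cytosolic ribosomal protein genes none was called in either direction by edgeR's quasi-likelihood test (1.48% of all genes were called higher and 2.34% lower). DESeq2 and limma-voom called none of the 39 higher (1.16% and 1.42% of all genes were). At an unadjusted p under 0.05 in edgeR's test stood 4 of them, against 17.8% of all tested genes (8.04% higher and 9.80% lower). Above 0 were 38, against 49.5% of all tested genes, and the median log2 fold change was 0.18. In 15 of the 39 all fbn6-1 libraries lay above all Col-0 libraries (10.9% of all tested genes did so). Their summed level was 2427 to 2669 CPM in fbn6-1 and 2267 to 2375 CPM in Col-0. Among 8 tested markers of dividing cells, which are known to hold many ribosomes, none was called and the median log2 fold change was -0.16. They went both ways, with 3 above 0 and 5 below. ANT (0.63) and PCNA2 (-0.62) had an unadjusted p under 0.05 in edgeR's test. In 1 marker all fbn6-1 libraries lay above all Col-0 libraries and in 2 below (10.9% and 12.1% of all tested genes). No marker exceeded 3.67 CPM in any library. The summed level of all 11 listed markers of dividing cells was 13.2 to 15.8 CPM in fbn6-1 and 12.2 to 16.5 CPM in Col-0. The 5 green leaf markers had a median of -0.27 with all 5 below 0. None of the 5 was called, and 4 had an unadjusted p under 0.05 in edgeR's test (9.80% of all tested genes were lower at that level). In 4 all fbn6-1 libraries lay below all Col-0 libraries (12.1% of all tested genes did so). The part of any of these in the offset of the plastid ribosomal protein genes was not tested.

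**Figure D5:**
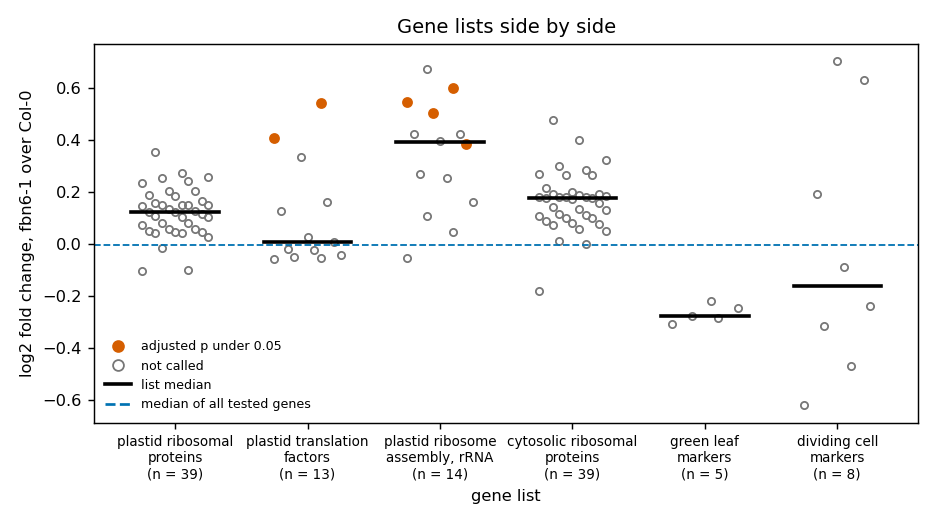
Log2 fold change of fbn6-1 over Col-0 (y axis) of each tested gene in 6 lists (x axis), with filled orange points for genes at an adjusted p under 0.05, open points for the others, black lines for list medians and a dashed line for the median of all tested genes. The medians are 0.12 for the plastid ribosomal proteins, 0.01 for translation factors, 0.39 for assembly genes, 0.18 for cytosolic ribosomal proteins, -0.27 for green leaf markers and -0.16 for dividing cell markers.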

How the data were processed

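Whole-transcriptome counts of 6 libraries were analysed, 3 of fbn6-1 and 3 of Col-0, with groups and replicate numbers from the labels. The authors deposited raw read counts per gene. The submitters' processing notes list featureCounts, TopHat2 2.1.1, FastQC and Trimmomatic, and TAIR10 as build. Not given in the sources used here are the settings, the annotation release, strand use and the treatment of multi-mapping reads, so counts of overlapping genes (the exons of 16 of the 39 genes overlap another gene) and of near-identical copies are uncertain.

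The test was edgeR's (version 4.0.16, under R 4.3.3; quasi-likelihood, two-sided, TMM factors, filterByExpr with minimum count 10 and minimum total 15, Benjamini-Hochberg adjustment over 16584 genes, threshold 0.05). The self-test on simulated counts ran first. CPM were counts in a TMM-scaled library of 1000000 counts; levels per length used RefSeq exon lengths, and the common biological coefficient of variation was 0.124. Alternatives were DESeq2 1.42.0 (no adjusted p was set to 1), limma 3.58.1 voom, other scalings and filters, a replicate block and leaving out each library. Gene models, coding sequences and upstream windows came from RefSeq TAIR10.1, in which 29 of the 39 genes have a symbol other than the locus identifier. Some of these symbols are not ribosomal protein names, among them EMB3126 for PRPL1 and GHS1 for PRPS21. The names used here follow the annotated protein number, apart from PSRP1, which follows common usage. The members and lists were chosen with earlier results of these data known. Values in every library are given for FBN6, called genes, the 5 largest and 5 smallest log2 fold changes, the 3 highest and 3 lowest levels per length and the PRPL12 and PRPL19 copies; of the other lists, up to 4 called genes per direction by adjusted p.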

Additional observations from a re-analysis of the deposited data

How the results depend on the processing

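With library-size scaling, and with nuclear genes only under library-size scaling (an alternative chosen after seeing the data), 2 and 4 of the 39 genes were called higher, their median log2 fold change was 0.26 and 0.25, and 1 and 1 cytosolic ribosomal protein genes were called higher. The median of all tested genes was 0.13 and 0.12 in these fits. The fold changes of PSRP1 (0.032 and 0.023), PSRP3 (0.12 and 0.11) and PRPL27 (0.032 and 0.022) changed sign there. The labels do not say whether the replicate numbers shared by the genotypes (2 and 3) are pairs. Libraries with the same number correlated at -0.03 and 0.10, against -0.20 to 0.13 for libraries with different numbers. So few values cannot decide on pairing, and the main fit was unpaired. In the fit with a replicate block, fbn6-1 replicate 1 and Col-0 replicate 4 have no partner. The difference between genotypes then rests on replicates 2 and 3 of each genotype alone. With this block, the median of the 39 genes was 0.083, and PRPS13 (-0.014), PRPL34 (-0.013) and PRPL35 (-0.061) changed sign. It left 0 assembly genes and 0 translation factors called. DESeq2 called 1 translation factor, and an adjusted p under 0.01 left 0 translation factors and 1 assembly gene. Over all genes, 245 were called higher and 388 lower without the block, and 73 and 118 with it. Leaving out 1 library at a time gave 0 to 5 called assembly genes, 0 to 2 called translation factors and medians of 0.08 to 0.20 for the 39 genes. Signs then changed for PRPS1 (-0.021 to 0.11), PRPS13 (-0.0063 to 0.11), PSRP3 (-0.10 to 0.087), PSRP5 (-0.0073 to 0.15), PRPL6 (-0.010 to 0.13), PRPL10 (-0.062 to 0.13), PRPL12-A (-0.083 to 0.11) and PRPL34 (-0.030 to 0.16). The causes were not tested. With 3 libraries per genotype, differences of a single gene near the median SE of 0.10 were not detectable.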
